A study of Mus musculus with 20 samples.

Results

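The levels of 8 long non-coding RNAs (lncRNAs) were followed in the left ventricle of middle-aged male mice: Neat1, Malat1, H19, Meg3, Kcnq1ot1, A330023F24Rik, 5430431A17Rik and 9430062P05Rik. They were picked by name among the 15956 genes of the deposited count table, with earlier results of these data in view, and all 8 were listed and passed the filter on low counts. The table also lists 1712 other genes annotated as lncRNAs. Expression was measured with QuantSeq, which reads a tag next to the poly(A) tail of each transcript, in 20 mice, 5 in each of 4 diet groups. NP mice ate a normal protein diet, LP mice a low protein diet, HF mice a high-fat diet, and HF + LP mice a diet that was both high in fat and low in protein. By the study's diet composition, carbohydrate was lower where fat was high and higher where protein was low. A change of fat or protein named below therefore includes a change of carbohydrate, and they cannot be told apart. No genetic change or drug was used. By their labels the mice were 18 months old, whereas the study's methods describe a younger age at collection. Mice are named here by group and animal number.

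Total counts per mouse lay between 12559607 and 23331907, and mitochondrial genes took 35.4 to 47.2% of them. By group they took 41.3 to 47.1% in NP, 35.4 to 44.5% in LP, 38.1 to 39.8% in HF and 38.5 to 47.2% in HF + LP mice. HF and NP mice thus did not overlap in this share, and its part in the members' values was not tested. All 8 cardiomyocyte markers were listed, at summed levels of 33168 to 53567 CPM, which are read counts relative to the TMM-scaled library size. The median correlation of a mouse's profile with its own group was 0.904 to 0.959 in LP mice, lowest in LP mouse 13 and next lowest in LP mouse 20 (0.936), and 0.951 to 0.979 in the other groups. The 4 adipocyte markers summed to 177 CPM in LP mouse 13, to 59.6 CPM in LP mouse 20 and to 0.252 to 31.8 CPM in the others. The 4 atrial markers summed to 14469 CPM in LP mouse 13, and HF mouse 1 had 12044 CPM; elsewhere the sums ran from 57.2 to 5154 CPM.

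A lncRNA acts as RNA, without a protein product. Neat1 is the scaffold of paraspeckles, nuclear bodies that hold RNA and RNA-binding proteins. Malat1, its neighbour on the chromosome, gathers at nuclear speckles, where splicing factors are stored. H19, Meg3 and Kcnq1ot1 are imprinted, so that a single parental copy is active, and Kcnq1ot1 silences genes around it. A330023F24Rik is a host transcript of miR-29b and miR-29c, microRNAs known to hold down collagen mRNAs in the heart. No role is given here for 5430431A17Rik or 9430062P05Rik.

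Because the libraries were primed on poly(A), annotated 3′ ends are shown. They do not settle which transcripts were counted. GENCODE M21 on GRCm38 gives Neat1 both a short form (Neat1-202, 3004 bases) and a long form (Neat1-201, 20771 bases) that runs through to build the paraspeckle. The last 60 bases of transcripts of the 5 members whose HF mice all lay below all NP mice are shown 5′ to 3′, with a polyadenylation signal in capitals, either AATAAA or its common variant, written ATTAAA.
5430431A17Rik-201, chr7:44485354-44485413, plus strand: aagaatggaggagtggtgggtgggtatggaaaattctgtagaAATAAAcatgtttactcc
Neat1-202, chr19:5842307-5842366, minus strand: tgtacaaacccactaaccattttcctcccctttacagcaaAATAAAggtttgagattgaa
Neat1-201, chr19:5824708-5824767, minus strand: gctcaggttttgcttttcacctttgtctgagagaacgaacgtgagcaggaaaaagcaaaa
Meg3-209, chr12:109571667-109571726, plus strand: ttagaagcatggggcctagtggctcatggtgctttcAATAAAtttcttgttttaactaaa
A330023F24Rik-204, chr1:195037845-195037904, plus strand: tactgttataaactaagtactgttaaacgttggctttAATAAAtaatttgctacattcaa
9430062P05Rik-201, chr9:90156460-90156519, minus strand: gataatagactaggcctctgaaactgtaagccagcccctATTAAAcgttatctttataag
The short Neat1 end carries a signal 20 bases from its last base, whereas the long end carries none in its last 50 bases. Each of the 8 members had at least 1 annotated transcript with a signal there, as did 83.6% of all listed genes and 53.1% of listed lncRNA genes. Inner runs of 10 or more A, where the primer could also bind, numbered 10 in Kcnq1ot1, 6 in Meg3-209, 2 in 9430062P05Rik and 0 in Neat1 and H19. Malat1 and the long form of Neat1 are known to end in a folded structure in place of a poly(A) tail, and Malat1-201 holds 1 inner run of A. How the counts divide between forms was not measured.

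Start windows are shown for the member with the largest difference, 5430431A17Rik, and for Meg3. RefSeq start windows (GRCm38.p6, 250 bases before to 50 after the start) were found for 6 of the 8 members. The RefSeq start of 9430062P05Rik lies 632 bases from that of its only GENCODE transcript, so its window need not cover the latter. The A330023F24Rik start lies 1 base from that of A330023F24Rik-202, whereas the end shown above is that of A330023F24Rik-204. In the 5430431A17Rik window, the most repeated 12-base word (capitals) stands 5 times, 35, 71, 35 and 36 bases apart. As many copies of a 12-base word were found in 100 of 32851 windows (0.304%).
5430431A17Rik start, chr7:44484267-44484566, plus strand: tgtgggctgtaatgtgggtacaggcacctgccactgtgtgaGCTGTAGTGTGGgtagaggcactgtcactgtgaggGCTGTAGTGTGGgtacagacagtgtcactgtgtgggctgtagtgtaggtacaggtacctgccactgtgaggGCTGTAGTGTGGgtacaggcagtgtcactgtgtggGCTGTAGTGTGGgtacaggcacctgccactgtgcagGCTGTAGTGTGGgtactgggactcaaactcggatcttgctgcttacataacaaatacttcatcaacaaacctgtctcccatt
In the first Meg3 window, a cAMP response element (TGACGTCA), a TATA box (TATAAA) and a CCAAT box (CCAAT), searched on both strands, are in capitals. Matches of the TATA box on both strands overlap each other.
Meg3 start, chr12:109540746-109541045, plus strand: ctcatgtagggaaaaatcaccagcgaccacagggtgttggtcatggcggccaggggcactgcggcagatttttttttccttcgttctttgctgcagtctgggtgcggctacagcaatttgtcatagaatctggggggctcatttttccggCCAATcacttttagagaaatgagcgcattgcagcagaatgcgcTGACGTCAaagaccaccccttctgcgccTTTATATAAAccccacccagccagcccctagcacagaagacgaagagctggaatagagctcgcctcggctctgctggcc
These motifs stand in 1.79, 13.6 and 37.4% of all windows. None of these was found in the windows of 5430431A17Rik, A330023F24Rik or 9430062P05Rik, nor was a nuclear receptor half-site (AGGTCA, in 16.3% of windows), an E-box (CACGTG, 7.15%) or a GC box (GGGCGG, 35.7%).

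The comparison of HF + LP with LP asked how fat changed expression when protein was low. Its fold changes used none of the HF and NP mice, whereas the spread was estimated over all 20 libraries. 5430431A17Rik and Neat1 were lower in HF + LP mice, and the other 6 did not pass the test. A call needed both an adjusted p below 0.01 (edgeR's quasi-likelihood test, all genes) and a mean normalised count above 50. The 2 called members stand beside a background of 0.1% of 13991 tested genes called in either direction and 0.05% called lower. The members were picked with earlier results of these data in view, so these shares are a description.

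5430431A17Rik lies on chr7:44473538-44486138 (plus strand) between Josd2 and Emc10, and is annotated as a lincRNA with 2 transcripts. Its levels were 15.9, 13.2, 10.8, 22.3 and 15.5 CPM in LP mice. They were 3.31, 3.78, 4.93, 4.22 and 5.10 CPM in HF + LP mice. The groups were far apart, with the highest fat-fed mouse below the lowest LP mouse. The log2 fold change was -1.86 ± 0.18 (SE; adjusted p = 1.78e-05, edgeR), rank 1 by p among all tested genes. Neither neighbour passed the test: Josd2, a deubiquitinase gene, differed by 0.23 ± 0.12 (adjusted p = 0.345, edgeR) and Emc10, for a subunit of a membrane protein insertase, by 0.16 ± 0.12 (adjusted p = 0.509, edgeR).

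Neat1 (chr19:5824708-5845478, minus strand) had 701, 794, 658, 818 and 541 CPM in LP mice. In HF + LP mice it had 360.2, 447, 285, 338 and 469.8 CPM. The groups did not overlap. The log2 fold change was -0.89 ± 0.15 (adjusted p = 0.00900, edgeR), close to the threshold. Non-overlap in the lower direction was seen in 0.936% of tested genes.

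Neat1 lost its call in 16 of the 20 fits that left out 1 mouse, with a fold change between -0.97 and -0.79 and an adjusted p of up to 0.0412 (edgeR). 5430431A17Rik kept its call in all 20. With only the 2 groups in the fit, which also set the filter on low counts (13499 genes tested) and the scaling anew, neither was called (adjusted p = 0.0130 for 5430431A17Rik and 0.163 for Neat1, edgeR). Which of these changes moved the calls was not tested.

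No cell type marker was called in this comparison. All 4 adipocyte markers were lower at an unadjusted p under 0.05 (edgeR), beside 15.9% of all tested genes in either direction, with a median log2 fold change of -4.69, and their sums ranged from 1.15 to 177 CPM in LP mice and from 0.252 to 7.11 CPM in HF + LP mice. Of the Schwann cell markers, 2 of 3 tested were lower by the same measure (median -0.92), with sums of 8.94 to 35.1 CPM in LP and 7.49 to 11.1 CPM in HF + LP mice. Of the pericyte and smooth muscle markers, 2 of 7 were lower (median -0.30), with sums of 398 to 575 and 474 to 618 CPM. The part of these cells in the result was not tested. With LP mice 13 and 20 left out, a choice made after seeing the data, 5430431A17Rik differed by -2.07 (adjusted p = 1.88e-06, edgeR) and Neat1 by -0.86 (adjusted p = 0.0658, edgeR). In tissue of mixed cells, fewer cells of a type and less RNA per cell cannot be told apart.

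**Figure D1:**
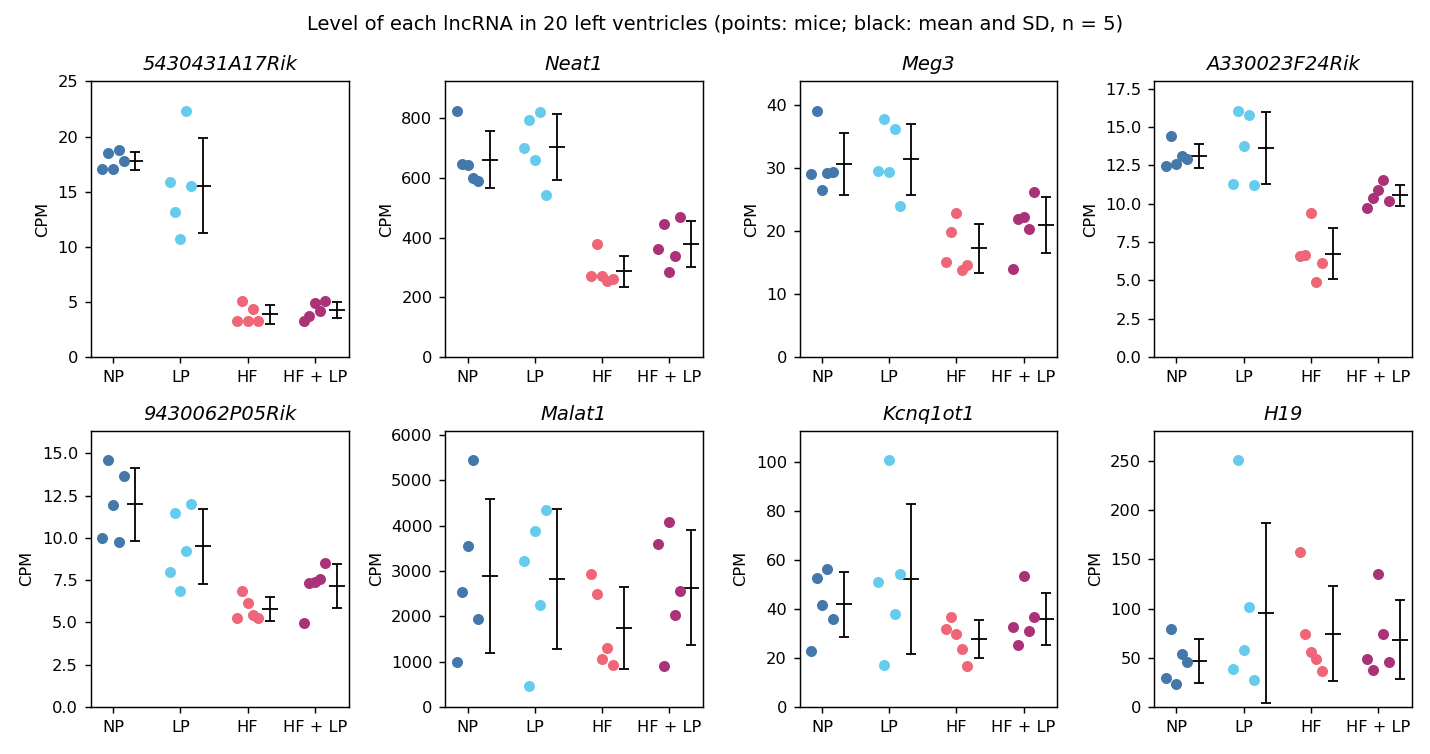
Level of each lncRNA, in CPM on a linear axis from 0, in every mouse by diet group (points), with the mean and SD of 5 mice in black. 5430431A17Rik and Neat1 sit lower in both fat-fed groups, while Malat1, Kcnq1ot1 and H19 scatter widely within each group.

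Meg3, A330023F24Rik and 9430062P05Rik also had lower fitted levels in HF + LP mice that missed the threshold. Meg3, an imprinted transcript of the Dlk1 region (chr12:109541001-109571726, plus strand), had 29.5, 37.7, 29.4, 36.2 and 23.98 CPM in LP mice. In HF + LP mice it had 14.0, 22.0, 22.2, 20.4 and 26.1 CPM, so that HF + LP mouse 5 lay above LP mouse 5. The log2 fold change was -0.58 ± 0.17 (adjusted p = 0.125, edgeR). A330023F24Rik and 9430062P05Rik differed by -0.37 ± 0.14 (adjusted p = 0.203, edgeR) and -0.41 ± 0.17 (adjusted p = 0.239, edgeR), with overlapping groups. In all, and as a description, 5 of 8 members had an unadjusted p under 0.05 (edgeR), against 15.9% of tested genes.

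Malat1, H19 and Kcnq1ot1 differed by -0.10 ± 0.51, -0.48 ± 0.53 and -0.54 ± 0.34, with adjusted p of 0.939, 0.686 and 0.440 (edgeR). Their standard errors of 0.34 to 0.53 compare with 0.14 to 0.18 for the other 5 members. Kcnq1ot1 was at -0.17 without LP mouse 20 and at -0.77 without LP mouse 13.

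Set beside it, HF against NP is the same change of fat at normal protein. Results of this comparison were known when the members were chosen, so its values are a description. 5430431A17Rik had 17.01, 18.5, 17.03, 18.8 and 17.8 CPM in NP mice and 3.29, 5.12, 3.29, 4.35 and 3.30 CPM in HF mice. Neat1 had 824, 646, 641, 600.2 and 589 CPM in NP mice and 272, 379, 271, 254 and 261 CPM in HF mice. For both genes every NP mouse lay above every HF mouse.

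Fitted log2 fold changes in HF were -2.21 for 5430431A17Rik, -1.20 for Neat1, -1.05 for 9430062P05Rik and -0.96 for A330023F24Rik, all inside the call rule. Meg3, at -0.83 with an adjusted p of 0.0197 (edgeR), lay just outside, and 9430062P05Rik, at 0.00297, just inside. Malat1 and Kcnq1ot1 were at -0.73 and -0.60, and H19 at 0.68. Without NP mouse 5 Malat1 was at -0.37, and without HF mouse 1 H19 was at 0.21. 9430062P05Rik left the rule without NP mouse 3, 6 or 8 or HF mouse 1, 4 or 5 (adjusted p of up to 0.0147, edgeR), and A330023F24Rik with only the 2 groups in the fit (adjusted p = 0.0132, edgeR). With edgeR the rule was met by 4 members, beside 0.264% of all tested genes (0.214% in the lower direction). With DESeq2 it was met by 5, Meg3 being the added member, beside 163 of 13991 genes. For 5 members all HF mice lay below all NP mice, beside 3.6% of genes, and for 0 members above, beside 2.07%.

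No cell type marker was called between HF and NP mice. Of 8 cardiomyocyte markers, 4 were lower at an unadjusted p under 0.05 (edgeR; median log2 fold change -0.24), beside 13.1% of all tested genes in either direction, and their sums ran from 43077 to 53567 CPM in NP and from 33514 to 43610 CPM in HF mice. Of 7 macrophage markers, 3 were higher (median 0.46), with sums of 217 to 258 CPM in NP and 287 to 347 CPM in HF mice. Of the 7 pericyte and smooth muscle markers, 2 were lower (median -0.18), with sums of 495 to 542 CPM in NP and 445 to 545 CPM in HF mice. The part of these cells in the members' values was not tested.

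9430062P05Rik (chr9:90156460-90159804, minus strand) has 1 annotated transcript of 1 exon, in a class that still awaits experimental evidence. Its levels were 9.98, 14.6, 11.96, 9.73 and 13.7 CPM in NP mice and 7.99, 11.4, 6.83, 9.21 and 12.02 CPM in LP mice. In HF mice they were 5.24, 6.83, 6.17, 5.44 and 5.29 CPM, and in HF + LP mice 4.97, 7.30, 7.39, 7.59 and 8.50 CPM. The order of the means was NP, LP, HF + LP and HF, and each pair of neighbours in it overlapped. Its neighbour Adamts7, for a secreted metalloprotease and 3265 bases away on the other strand, differed by -0.33 ± 0.18 between HF + LP and LP (adjusted p = 0.384, edgeR).

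**Figure D2:**
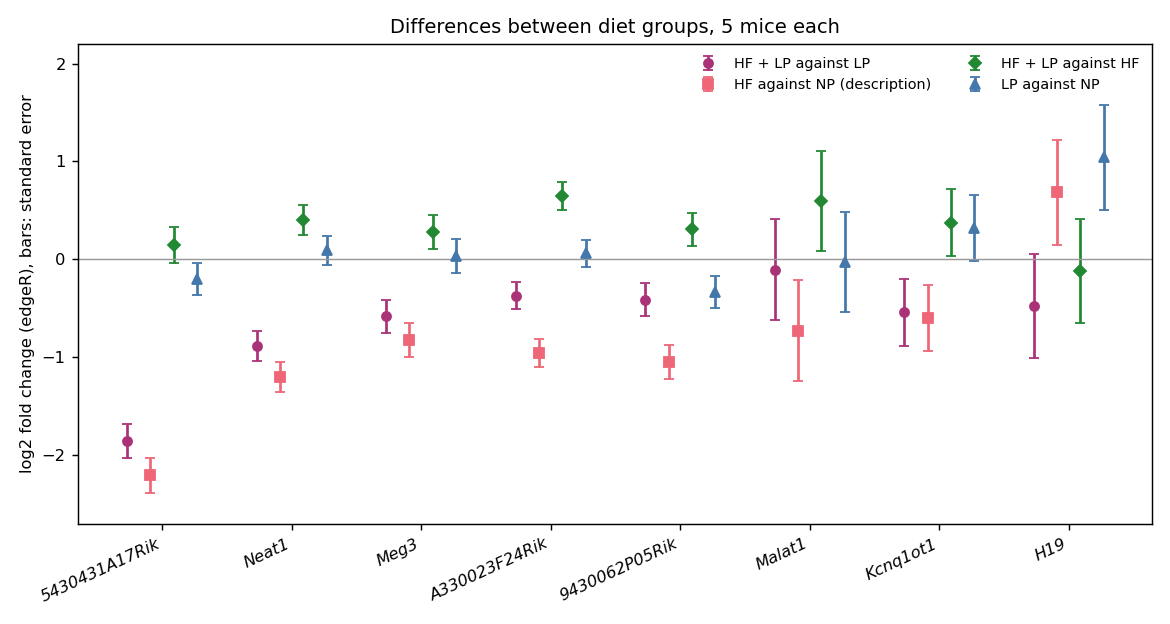
Fitted log2 fold change of each lncRNA (points) with its standard error (bars) in 4 comparisons of 5 mice with 5. Values for 7 members lie below 0 in both comparisons that change fat, H19 being the exception, and the bars of H19 and Malat1 are wide.

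The comparison of HF + LP with HF asked what low protein changed in fat-fed mice. It shares the HF + LP mice with the comparison above and the HF mice with the description. No member and no gene was called (background 0%). By unadjusted p under 0.05, 2 members and 677 genes (4.84%) differed, and DESeq2 called 0 members and 16 genes. A330023F24Rik came nearest to a call, at 16th by p among all genes.

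A330023F24Rik (chr1:194976375-195037904, plus strand) had 6.59, 6.68, 9.41, 4.87 and 6.14 CPM in HF mice. In HF + LP mice it had 9.76, 10.4, 10.9, 11.5 and 10.2 CPM. The groups did not overlap, though only narrowly for HF mouse 3, whose adipocyte marker sum of 31.8 CPM was the highest of its group. The log2 fold change was 0.65 ± 0.14 (adjusted p = 0.191, edgeR). Without HF mouse 3 it was 0.80, and over all fits that left out 1 mouse the adjusted p lay between 0.0708 and 0.501. Non-overlap in the higher direction was seen in 0.543% of tested genes, and for 0 members in the lower direction (0.636% of genes).

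NP mice had 12.4, 14.4, 12.6, 13.1 and 12.9 CPM of A330023F24Rik, and LP mice 11.3, 16.1, 13.7, 15.8 and 11.2 CPM. NP and HF + LP means differed by more than both SDs (13.1 ± 0.777 and 10.6 ± 0.690 CPM, SD, n = 5), and those of LP and NP did not. The interaction of fat and protein was 0.59 ± 0.20. It contains the HF against NP difference and is a description. An unadjusted p under 0.05 for this term was reached by 2 members, A330023F24Rik and 9430062P05Rik, beside 7.17% of all tested genes. Neither was called (adjusted p = 0.629 and 0.671, edgeR), and 0 of all tested genes were.

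Neat1 was at 0.40 ± 0.15 in HF + LP against HF (adjusted p = 0.714, edgeR), and the groups overlapped. The other members, including 5430431A17Rik at 0.15 ± 0.18, had an adjusted p of 0.999 (edgeR).

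Annotated microRNAs within A330023F24Rik and H19 are shown because they are what these transcripts are known to yield, with the seed (bases 2 to 8) in capitals (RefSeq, GRCm38.p6).
mmu-miR-29b-3p, chr1:195037091-195037113, plus strand: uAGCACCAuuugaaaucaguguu
mmu-miR-29c-3p, chr1:195037600-195037621, plus strand: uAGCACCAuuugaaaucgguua
mmu-miR-675-5p, chr7:142577112-142577133, minus strand: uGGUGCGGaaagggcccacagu
mmu-miR-675-3p, chr7:142577078-142577099, minus strand: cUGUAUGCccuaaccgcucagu
miR-29b-3p and miR-29c-3p share the seed AGCACCA. Both lie in exon 3 of A330023F24Rik-204, whose end is printed above. miR-675 lies in exon 1 of H19-202. Mature microRNAs have no poly(A) tail and were not measured. Of 23 tested genes listed as known miR-29 targets, 0 were called in any of the 4 comparisons. In HF + LP against HF, 4 were lower at an unadjusted p under 0.05 and 0 higher (17.4% of the list, beside 4.84% of all genes). They included Col3a1, for a fibrillar collagen (-0.55 ± 0.19, adjusted p = 0.577, edgeR), and Sparc, for a collagen-binding matrix protein (-0.32 ± 0.11, adjusted p = 0.580, edgeR). By the same measure 1 was higher and 2 lower in HF + LP against LP (13.0%, beside 15.9% of all genes). In LP against NP 1 was higher and 0 lower (4.35%, beside 7.23%). As a description, 4 were higher and 2 lower in HF against NP (26.1%, beside 13.1%). The list was chosen with earlier results of these data known. Sparc was at 0.39 in HF + LP against LP (adjusted p = 0.111, edgeR) and at 0.54 in HF against NP (adjusted p = 0.0170, edgeR), where Col3a1 was at 0.87 (adjusted p = 0.0217, edgeR). The list's median log2 fold change was -0.11 in HF + LP against HF, -0.01 in HF + LP against LP, -0.01 in LP against NP and 0.17 in HF against NP, beside 0.02, -0.03, 0.02 and -0.001 over all tested genes. Of 8 fibroblast markers, 0 were called in HF + LP against HF, and 2 were lower at an unadjusted p under 0.05 and 0 higher, with a median of -0.30 and sums of 954 to 1230 CPM in HF + LP and 1135 to 1471 CPM in HF mice. Their part in the list's values was not tested.

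The comparison of LP with NP asked what low protein changed without added fat. No gene was called (background 0%); 1012 genes (7.23%) and 0 members had an unadjusted p under 0.05, and DESeq2 called 4 genes, none a member. All 8 members overlapped between these groups, where 0.343% of genes lay wholly lower in LP and 0.436% wholly higher. H19 had the largest fitted difference among the members, at 1.04 ± 0.54 (adjusted p = 0.719, edgeR), and the difference was 0.27 without LP mouse 13. Fitted changes of Neat1, Meg3, A330023F24Rik, Malat1 and 5430431A17Rik lay between -0.20 and 0.09.

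H19 (chr7:142575529-142578143, minus strand), an imprinted transcript that is abundant in the fetal heart, varied more among mice than between groups. It had 29.5, 79.3, 22.8, 54.1 and 45.9 CPM in NP mice and 38.7, 251, 57.7, 101 and 27.4 CPM in LP mice. In HF mice it had 158, 74.4, 55.4, 48.3 and 36.5 CPM, and in HF + LP mice 49.2, 37.5, 136, 74.0 and 45.6 CPM. All 4 groups overlapped, with 1 high mouse in LP, HF and HF + LP each. The SD of log2 levels within groups was 0.90, above that of 99.1% of genes with a similar mean count (median 0.22).

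The genes whose log2 levels followed H19 most closely over the 20 mice, out of 10077, were Plvap (Pearson r = 0.89), Npr3 (r = 0.89) and Igf2 (r = 0.89, Spearman rho = 0.90). Plvap makes the diaphragms of endothelial fenestrae, Npr3 clears natriuretic peptides, and Igf2 is a growth factor imprinted together with H19, 72623 bases away. Igf2 stood at 54.7 CPM in LP mouse 13, 31.0 in HF mouse 1 and 33.5 in HF + LP mouse 3, each the highest of its group. Without the 2 mice farthest from the median of H19 (LP mouse 13 and HF mouse 1), r with Igf2 was 0.86. The same 3 mice held the highest atrial marker sums of their groups, at 14469, 12044 and 5131 CPM. Over the 20 mice, log2 H19 had r = 0.65 with the 4 summed atrial markers, 0.79 with the 3 summed mesothelial markers and 0.67 with the 8 summed fibroblast markers. Without LP mouse 13 and HF mouse 1 these were 0.44, 0.77 and 0.48. The points share their libraries, and the part of other tissue in the H19 levels was not tested.

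Malat1 (chr19:5795690-5802672, minus strand) ranged from 453 to 5442 CPM among the mice. It had 990.2, 2543, 3547, 5442 and 1941 CPM in NP mice and 3222, 453, 3873, 2249 and 4353 CPM in LP mice. In HF mice it had 2930.0, 2499, 1059, 1309.6 and 929 CPM, and in HF + LP mice 3590.0, 894, 4086, 2031 and 2568 CPM. The lowest mouse of each group lay between 453 and 990.2 CPM, the highest between 2930.0 and 5442 CPM, so all groups overlapped. The within-group SD of log2 levels was 0.99, above that of 92.3% of 39 genes with a similar mean count.

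Kcnq1ot1 (chr7:143203458-143296549, minus strand), which runs antisense inside the potassium channel gene Kcnq1, had 23.0, 52.7, 41.6, 56.3 and 36.0 CPM in NP mice. In LP mice it had 51.2, 17.3, 101, 37.8 and 54.3 CPM, in HF mice 32.0, 36.6, 29.9, 23.5 and 16.8 CPM, and in HF + LP mice 32.6, 25.5, 53.6, 31.2 and 36.7 CPM. All groups overlapped, and its spread was above that of 96.0% of similar genes. Kcnq1 differed by -0.15 ± 0.18 between HF + LP and LP (adjusted p = 0.714, edgeR). Whether counting used strand is not given in the sources used here.

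Malat1 and Kcnq1ot1 varied together over the 20 mice (r = 0.84, rho = 0.88), and as closely within groups (r = 0.86 after subtracting each group's mean). Without LP mouse 13 and HF + LP mouse 2, the farthest from the Malat1 median, r was 0.80. Genes most like Malat1 were Baz2a, of a chromatin remodelling complex (r = 0.97), Zfp950, for a zinc finger protein (r = 0.97), and Pnisr, for an SR-related protein (r = 0.96). Those most like Kcnq1ot1 were Git2, for a GTPase-activating protein (r = 0.93), Kmt2a, for a histone methyltransferase (r = 0.92), and Nrip1, for a nuclear receptor corepressor (r = 0.91). Malat1 also followed the share of counts in the 1712 other lncRNA genes (r = 0.78, rho = 0.89), which ranged from 0.496 to 1.59% of a library. With the group means subtracted, rho was 0.96. These values share their libraries, and the part of library make-up in them was not tested.

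**Figure D3:**
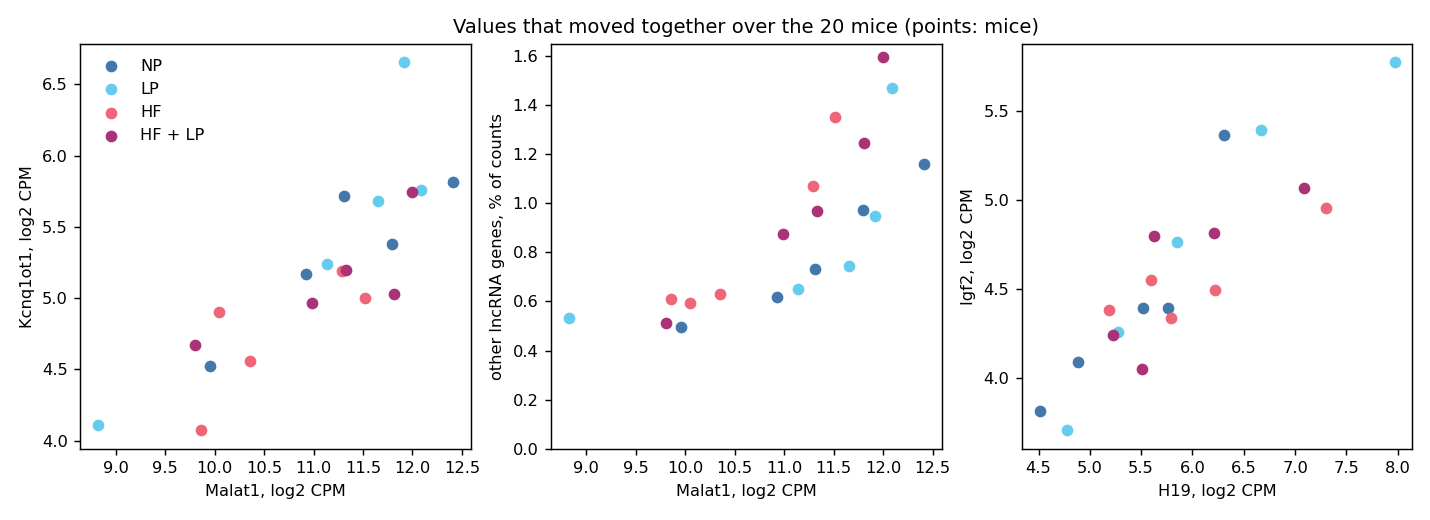
Each point is a mouse, coloured by diet, on log2 CPM axes except the share of counts in other lncRNA genes (%, middle panel). Malat1 rises with Kcnq1ot1 (left, r = 0.84) and with that share (middle, r = 0.78), and H19 rises with Igf2 (right, r = 0.89).

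For these 5 members, named with their 3′ ends above, likeness over 20 mice includes the differences between groups. Neat1 was most like Safb2, for a nuclear scaffold protein (r = 0.92), Mlxipl, for the glucose-responsive factor ChREBP (r = 0.92), and Ogt, for the O-GlcNAc transferase (r = 0.91). 5430431A17Rik was most like Gm42432 (r = 0.93), Gm42972 (r = 0.92) and Wdfy1 (r = 0.91), and 9430062P05Rik like Gm42972 (r = 0.88) and Gm42432 (r = 0.84). Meg3 and A330023F24Rik were each among the 3 genes most like the other (r = 0.87) and kept r = 0.72 with group means subtracted. Both were led by Firre, a nuclear lncRNA of the X chromosome (r = 0.90 and 0.91). With group means subtracted, Neat1 and its neighbour Malat1 had r = -0.42 (rho = -0.31).

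Other genes of these pathways were counted. Of 23 paraspeckle protein genes tested, 0 were called in any comparison, and in HF + LP against LP 3 were lower at an unadjusted p under 0.05 (13.0%, beside 15.9% of all genes): Nudt21, for a cleavage factor subunit (-0.95 ± 0.25, adjusted p = 0.0909, edgeR), Zc3h6 and Cirbp. Of 11 tested imprinted genes around H19, Kcnq1ot1 and Meg3, 0 were called. Cdkn1c, a cell cycle inhibitor silenced by Kcnq1ot1, was at 0.53 ± 0.17 in HF + LP against LP (adjusted p = 0.142, edgeR) and at 0.68 ± 0.17 in HF + LP against HF (adjusted p = 0.238, edgeR). In HF against NP, as a description, it was at -0.26 ± 0.17 (adjusted p = 0.582, edgeR). A link of Cdkn1c to the Kcnq1ot1 levels was not tested. Of 25 other imprinted genes and 32 other well-known lncRNAs, 0 were called.

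A list of genes whose transcripts are held in the nucleus or retain introns was chosen with earlier results of these data known. Its counts are a description. Of its 28 tested genes, 1 was called in HF + LP against LP, beside 0.1% of all tested genes. Kmt2d, for a histone methyltransferase, was lower (-0.78 ± 0.11, adjusted p = 0.00246, edgeR). Over the 28 genes the median log2 fold change was -0.14 in this comparison, beside -0.03 over all genes. It was 0.16 in HF + LP against HF, 0.08 in LP against NP and -0.20 in HF against NP, beside 0.02, 0.02 and -0.001. In HF + LP against HF, 1 of the 28 had a negative value, and 0 had an unadjusted p under 0.05 (edgeR). Mlxipl was at -0.66 ± 0.13 in HF + LP against LP (adjusted p = 0.0233, edgeR). In HF against NP, as a description, 2 met the rule, beside 0.264% of all tested genes: Kmt2d at -0.89 (adjusted p = 0.000174, edgeR) and Mlxipl at -0.71 (adjusted p = 0.00857, edgeR). In the other 2 comparisons 0 did.

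Among the other 1712 lncRNA genes, 1122 were tested. In HF + LP against LP, 3 were called, all lower (0.267%, beside 0.1% of all tested genes in either direction and 0.05% lower). They were Gm42972 (-0.85 ± 0.12), Gm38380 (-1.10 ± 0.18) and Gm42432 (-1.28 ± 0.22), with adjusted p of 0.00388, 0.00726 and 0.00839 (edgeR). Over the 1122 genes the median was -0.12 and 60.7% had a negative value, beside -0.03 and 54.2% over all genes. In HF against NP, as a description, 13 of the 1122 met the rule, all lower, beside 37 of 13991 genes. There 73.5% had a negative value, beside 50.2% over all genes. At an unadjusted p under 0.05 (edgeR), 17 were higher and 232 lower there, and 57 and 133 in HF + LP against LP. In HF + LP against HF the numbers were 117 and 2 (10.6%, beside 4.84% of all genes). In LP against NP they were 50 and 19. No call was made in either comparison. The median was 0.24 in HF + LP against HF, 0.06 in LP against NP and -0.28 in HF against NP, beside 0.02, 0.02 and -0.001 over all genes. The share of counts in these genes was 1.04 ± 0.406% in HF + LP and 0.869 ± 0.369% in LP mice (SD, n = 5), and did not pass a 2-sided exact permutation test in any of the 4 comparisons (p from 0.429 to 0.786, adjusted p = 0.786).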

How the data were processed

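Left ventricle RNA of 20 mice was sequenced with QuantSeq 3′ libraries. Reads were aligned by the authors in BlueBee, and the values they deposited are unnormalised counts, 1 row for each Ensembl gene. The build GRCm38 and DESeq2 1.22.2 come from the submitters' processing notes. The annotation and counting program are not given in the sources used here. Each listed gene has at least 60 counts in all.

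Symbols, for 15917 of 15956 genes, positions and gene types came from GENCODE M21. Counts were tested in R 4.3.3 with edgeR 4.0.16 (filterByExpr by group, TMM, 1 quasi-likelihood model over 20 libraries, Benjamini-Hochberg adjustment). Standard errors derive from the F statistic, and log2 levels used a prior count of 2. Scripts were tested on simulated data. Depth behind a member ran from 44 counts (5430431A17Rik) to 91834 (Malat1) per library. Replicates are separate mice. The members, lists and tests were chosen with earlier results of these data known. Named genes were the members, their neighbours, the 3 most alike genes and the list members with the lowest p. DESeq2 1.42.0, other filters, scalings and mice left out were alternatives.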

Additional observations from a re-analysis of the deposited data

Results flagged for a closer look

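In 3 of the 36 groups of 5 mice examined, 1 mouse stood far from the other 4, its gap exceeding 0.71 of the group's range. Chance flags about 1 group in 20. Neat1 in NP mouse 4 was at 824 CPM, against 589 to 646 CPM in the other NP mice, and leaving it out moved the Neat1 difference between HF and NP to -1.11. Neat1 in HF mouse 2 was at 379 CPM, against 254 to 272 CPM, and the difference was -1.32 without it. Meg3 in NP mouse 3 was at 39.1 CPM, against 26.5 to 29.3 CPM, and the Meg3 difference between HF and NP was -0.73 without it.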

How the results depend on the processing

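In HF + LP against LP, 2 members were called. The count was 1 (5430431A17Rik) with no filter on low counts, with the library name number as a covariate, and with LP mice 13 and 20 left out. It was 0 with only the 2 groups compared, where 5430431A17Rik had an adjusted p of 0.0130 and Neat1 of 0.163 (edgeR). Leaving out 1 mouse gave 1 to 2 members there and 3 to 4 in HF against NP, where 9430062P05Rik was the member lost. Genes called in HF + LP against LP numbered 14, against 84 by DESeq2, 44 at an adjusted p under 0.05, 5 with the covariate, 0 with 2 groups, 4 without both LP mice and 1 to 16 without 1 mouse. In HF against NP they numbered 37, against 163 by DESeq2, 157 at 0.05, 61 with 2 groups, 76 without both LP mice and 20 to 68 without 1 mouse.

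Animal numbers are shared by different mice of the groups, and nothing in the labels pairs them. The mean correlation of same-numbered mice was 0.18 in HF + LP against LP (2 shared numbers, -0.01 and 0.37), -0.04 in HF + LP against HF (5, from -0.56 to 0.47), 0.21 in LP against NP (1) and -0.24 in HF against NP (3, from -0.48 to 0.13), so the numbers were not taken to pair the mice. With the animal number as a replicate block, 0 members and 0 genes were called in HF + LP against LP (5430431A17Rik -1.78, adjusted p = 0.0420; Neat1 -0.55, adjusted p = 0.848, edgeR), and 1 member and 2 genes in HF against NP. H19 turned to 0.65 in HF + LP against LP, and in LP against NP Neat1 turned to -0.42, Malat1 to 0.34, H19 to -0.43, Meg3 to -0.31 and A330023F24Rik to -0.18 under the block.

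Other reversals were of uncalled values. Without both LP mice, H19 was 0.30 in HF + LP against LP, and Malat1 was 0.19, Meg3 -0.0361, A330023F24Rik -0.0348 and 5430431A17Rik 0.0087 in LP against NP. With the covariate, H19 was 0.0247 in HF + LP against HF and Malat1 0.0013 in LP against NP. Leaving out 1 mouse gave, in HF + LP against LP, -0.38 to 0.12 for Malat1 and -0.88 to 0.29 for H19. In HF + LP against HF it gave -0.55 to 0.35 for H19. In LP against NP it gave -0.25 to 0.33 for Malat1, -0.0466 to 0.14 for Meg3, -0.0119 to 0.12 for A330023F24Rik and -0.0606 to 0.54 for Kcnq1ot1. The difference in the share of other lncRNA counts was 0.0545 percentage points in HF against NP, -0.0218 over nuclear-encoded genes, and -0.0705 to 0.146 without 1 mouse. For LP against NP it was -0.0772 to 0.164 without 1 mouse. The cause was not tested.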
